A study of Mus musculus with 8 samples.

Results

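NKG2D, encoded by Klrk1, is an activating receptor of natural killer (NK) cells and of some T cells, and its ligands and signalling adaptors were followed here in mouse mammary tumors. The 6 genes were the ligands Ulbp1, H60b and H60c, the receptor Klrk1 and the adaptors Hcst and Tyrobp. They were matched by symbol to the array rows that carry 1 gene symbol in the platform annotation, and each had 1 such row, so that 6 of 22180 named genes were followed. Ulbp1 was picked because its signal was higher in the tumors with Cre, so its difference between the groups is a description with no test. The other 5 were chosen for their role, with earlier results of these data known.

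The series holds 8 whole MMTV-PyMT mammary tumors on a congenic FVB/NJ background, from mice 3 to 4 months old, with 1 Affymetrix array per tumor. In 4 tumors, labelled conditional knockout (cKO), the mice carried MMTV-Cre and floxed Mmp14 alleles, written Mmp14(f/f). The other 4, labelled wild-type (WT), carried Mmp14(f/f), and their labels name no Cre transgene. Both groups therefore carry the floxed alleles and the MMTV-PyMT transgene, and they differ both in Cre and in the targeted gene. The MMTV promoter drives Cre in mammary epithelium, while the samples were intact tumors that also hold other cells. Inguinal and thoracic glands were the source of the tumors, and the labels call the 4 of each group biological replicates without naming the animals.

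NKG2D ligands are surface proteins related to MHC class I that normal cells show little of and that stressed, infected or transformed cells can put on their surface. In mice they include the H60 and RAE-1 families and MULT1, the product of Ulbp1. Binding of a ligand to NKG2D can trigger killing by NK cells. The receptor has no signalling motif of its own. Hcst (DAP10) links it to phosphoinositide 3-kinase and the exchange factor Vav1, and in mice Tyrobp (DAP12) can link it to the kinases Syk and Zap70. Tyrobp also serves many receptors of macrophages and other myeloid cells. In human cells, the MMP14 protein has been described as shedding the NKG2D ligand MICA, which mice lack.

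Promoter windows of Ulbp1 and H60c are shown because these ligands share chromosome 10 and gave unlike signals in the tumors. Each window spans 250 bases before to 50 bases after the annotated start, on the minus strand of the RefSeq assembly GRCm38.p6, which is of C57BL/6J and not of FVB/NJ. Capitals mark matches, on either strand, to CCAAT (the CCAAT box), GGGCGG (the GC box), TATAAA (the TATA box), TTNNCGC (an E2F core), TGACGTCA (the cyclic AMP element), TGATGCAA (an ATF4 element) or AGGAAGT (an Ets core).
Ulbp1, chr10:7473428-7473727: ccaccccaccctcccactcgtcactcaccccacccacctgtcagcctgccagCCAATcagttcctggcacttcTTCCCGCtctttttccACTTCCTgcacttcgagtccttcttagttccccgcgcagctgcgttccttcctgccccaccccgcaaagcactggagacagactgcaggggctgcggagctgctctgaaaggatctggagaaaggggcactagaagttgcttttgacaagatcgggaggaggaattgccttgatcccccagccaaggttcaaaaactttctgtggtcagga
H60c, chr10:3267722-3268021: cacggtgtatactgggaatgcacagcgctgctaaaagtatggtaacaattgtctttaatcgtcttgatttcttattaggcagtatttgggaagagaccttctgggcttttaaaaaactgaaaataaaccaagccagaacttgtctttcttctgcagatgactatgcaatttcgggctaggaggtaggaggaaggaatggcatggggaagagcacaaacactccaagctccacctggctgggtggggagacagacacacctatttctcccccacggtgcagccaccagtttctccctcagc

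The Ulbp1 window held a CCAAT box from −198 to −194, an E2F core match from −177 to −171 and, on the opposite strand, an Ets core from −161 to −155, counted from the annotated start. The H60c window held none of the 7 motifs. Among 32851 RefSeq promoter windows of 300 bases, 37.4% held CCAAT, 20.2% the E2F core and 9.35% the Ets core. The shares were 35.7% for GGGCGG, 13.6% for TATAAA, 1.79% for TGACGTCA and 0.895% for TGATGCAA. The Ulbp1 window was 57.3% G or C with 9 CpG pairs, and the H60c window 47.3% with 5, beside medians of 52.7% and 7. These matches describe letters and not bound sites, and the series measured no binding.

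Ulbp1 signal was higher in every cKO tumor than in any WT tumor. Its log2 signal was 4.72, 5.31, 5.27 and 5.16 in cKO tumors 1 to 4, against 4.01, 3.95, 4.10 and 4.05 in WT tumors 1 to 4. The cKO tumors averaged 5.11 ± 0.27 and the WT tumors 4.03 ± 0.06 (SD, n = 4 each), a difference of 1.09 on the log2 scale or a signal ratio of 2.13. The WT tumors lay close together just above the array medians, which ran from 3.64 to 3.71, while the cKO tumors spread more, with cKO 1 lowest. No detection call was used here, so the WT signal was not shown to be above background, and on this scale a ratio of a dim row can understate the ratio of RNA. By the array number in the labels, arrays 1 to 4 alone gave a difference of 1.04, and arrays 5 to 8 gave 1.14, with 2 tumors of each group in each set. Of the 23521 rows tested, 24 had a larger positive difference. Ulbp1 was picked on these same values, so this rank and the values by array set are descriptions and no separate support. The samples were whole tumors, so more cells that express a gene and more RNA per cell cannot be told apart.

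H60b signal varied widely among cKO tumors and little among WT tumors. It was 6.92, 3.92, 5.55 and 6.47 in cKO tumors 1 to 4, against 5.05, 4.98, 4.80 and 5.33 in WT tumors 1 to 4. Of the cKO tumors, 3 lay above all WT tumors, and cKO 2 lay below them. The means were 5.72 ± 1.33 in cKO and 5.04 ± 0.22 in WT tumors (SD, n = 4 each). The difference of 0.67 (SE 0.55, 95% interval −0.57 to 1.92) did not pass in limma, the linear model fitted over all rows (adjusted p = 0.730). It was 1.27 without cKO 2, 0.27 without cKO 1 and 0.42 without cKO 4, with adjusted p between 0.222 and 0.904. The order of the cKO tumors was not the same for Ulbp1 and H60b: cKO 1 was lowest for Ulbp1 and highest for H60b, and cKO 2 was highest for Ulbp1 and lowest for H60b. H60 genes resemble each other in sequence, and whether other copies hybridise to this row was not tested.

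H60c, known in mice as a ligand of skin, did not differ detectably. Its signal lay between 2.49 and 3.05 in cKO tumors and between 2.65 and 2.88 in WT tumors, below the array median on all 8 arrays, and the groups overlapped fully. The difference was −0.01 (SE 0.13, 95% interval −0.29 to 0.28, limma adjusted p = 0.994). The 5 measured skin keratinocyte markers had mean signals between 3.26 and 3.49 in cKO tumors and between 3.20 and 3.72 in WT tumors. The RAE-1 genes and H60a, the other mouse ligands listed, were not analysed here.

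**Figure D1:**
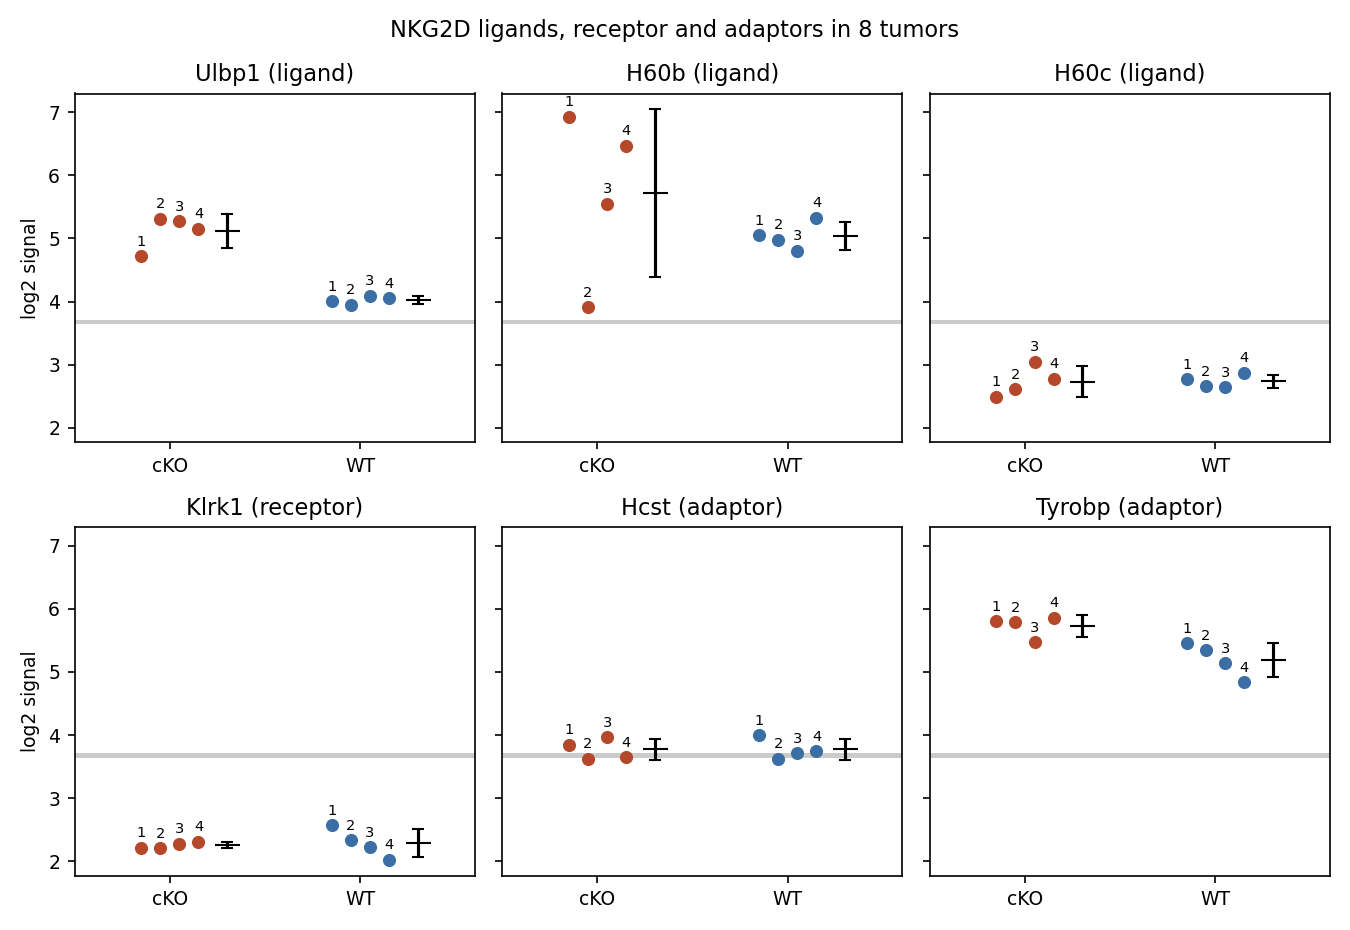
Log2 signal of each gene in the 4 cKO (red, left) and 4 WT (blue, right) tumors, numbered by replicate. Black marks give the mean and SD, and the grey band the range of the array medians, 3.64 to 3.71. The groups did not overlap for Ulbp1, which was picked for its higher signal in cKO tumors. Nor did they for Tyrobp, as for 5.42% of all rows in either direction. H60b spread from 3.92 to 6.92 in cKO tumors.

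The receptor gene Klrk1 gave a low signal in every tumor. It was 2.22, 2.21, 2.28 and 2.31 in cKO tumors 1 to 4, against 2.58, 2.34, 2.23 and 2.03 in WT tumors 1 to 4. The cKO tumors lay inside the range of the WT tumors, and all 8 values lay below the array medians. The difference was −0.04 (SE 0.12, 95% interval −0.30 to 0.22, limma adjusted p = 0.947), with −0.24 in arrays 1 to 4 and 0.17 in arrays 5 to 8. At this signal a change in receptor RNA may not be detectable, and the small difference does not show equal amounts.

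The adaptor genes Hcst and Tyrobp are direct neighbours on chromosome 7, with 0 annotated genes between them. Hcst, which couples NKG2D to phosphoinositide 3-kinase, had a signal of 3.85, 3.63, 3.97 and 3.65 in cKO tumors 1 to 4, against 4.00, 3.63, 3.72 and 3.75 in WT tumors 1 to 4. These values overlapped fully and lay around the array medians. The difference was 0.0004 (SE 0.11, 95% interval −0.26 to 0.26, limma adjusted p = 0.999).

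Tyrobp, whose product carries an immunoreceptor tyrosine-based activation motif, gave a higher signal in all 4 cKO tumors. It was 5.80, 5.79, 5.47 and 5.86 in cKO tumors 1 to 4, against 5.45, 5.35, 5.14 and 4.84 in WT tumors 1 to 4. The groups did not overlap, but cKO 3 and WT 1 nearly met. The means were 5.73 ± 0.18 in cKO and 5.20 ± 0.27 in WT tumors (SD, n = 4 each), a difference of 0.53 (SE 0.15, 95% interval 0.20 to 0.86) and a signal ratio of 1.45. This did not pass over all rows (limma adjusted p = 0.305), while a two-sided exact permutation test over tumors, not adjusted for the number of genes, gave p = 0.0286, the smallest that 4 against 4 allows. Arrays 1 to 4 gave a Tyrobp difference of 0.40, and arrays 5 to 8 gave 0.67. Whether the adaptors differed from each other in this comparison was not tested.

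None of the 5 genes chosen by role passed the threshold of an adjusted p of 0.05, which 0.0085% of all rows passed. Tyrobp was the 1 gene of these 5 with no overlap between the groups, beside 5.42% of all rows in either direction, 3.68% higher and 1.73% lower in cKO. Past the adjusted threshold, 0.00425% of all rows were higher and 0.00425% lower. At an unadjusted p below 0.05, Tyrobp was again the 1 gene of the 5, beside 9.68% of all rows, of which those lower in cKO made 4.14% of all rows. As a check of the labels, Mmp14 fell in cKO tumors, with 7.98, 7.74, 7.44 and 7.72 in cKO tumors 1 to 4, against 8.86, 9.12, 9.31 and 9.17 in WT tumors 1 to 4. Its difference was −1.40 (SE 0.13, limma adjusted p = 0.0444), and the adjusted p was above the threshold with the array number as a block (0.0708) and without 6 of the 8 tumors taken singly, up to 0.211. Where its probes lie with respect to the loxP sites was not analysed here. The luminal markers Epcam (10.5 in cKO and 10.6 in WT), Cdh1 (10.4 and 10.6) and Cldn3 (10.6 and 10.5) were high in both groups.

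No pair among the receptor and the adaptors had a correlation over the 8 tumors that passed its test, with p adjusted over the 4 pairs computed. Klrk1 and Hcst had Pearson's r = 0.43 (exact permutation p = 0.307, adjusted p = 0.798) and Spearman's rho = 0.24 (exact permutation p = 0.582). Without the 2 tumors farthest from the Klrk1 median, r was −0.20. Klrk1 and Tyrobp had r = 0.35 (exact permutation p = 0.399, adjusted p = 0.798) and rho = 0.14 (exact permutation p = 0.752), and r = −0.14 without those 2 tumors. After the group means were removed their r was 0.77 (permutation p = 0.0188, adjusted p = 0.0752), and without WT 4 the plain r was −0.20. The deviations were permuted across the groups, where the Klrk1 SD was 0.05 in cKO and 0.23 in WT tumors. That p is therefore not exact. Klrk1 and Tyrobp had r = −0.70 in arrays 1 to 4 and 0.89 in arrays 5 to 8, and whether these differ was not tested. Hcst and Tyrobp had r = −0.05 (exact permutation p = 0.898) and rho = −0.10 (exact permutation p = 0.840). The adjusted p of that r was 0.898, and that of each rho 0.840. As a description with no test, the ligand Ulbp1 and the receptor had r = −0.13 and rho = −0.43. Their r was −0.75 in arrays 1 to 4 and 0.76 in arrays 5 to 8. This turn of sign is not separate from that of Klrk1 and Tyrobp. Both pairs share Klrk1, with all 8 values below the array medians. Ulbp1 and Tyrobp were higher in cKO in both sets of arrays. The Klrk1 difference, cKO minus WT, was −0.24 in arrays 1 to 4 and 0.17 in arrays 5 to 8. Each of these within-array values rests on 4 tumors.

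Of the 5 genes most like Tyrobp in pattern, 3 are known from myeloid or other blood cells. Among genes with a mean signal of at least 5, the complement gene C1qa, made by macrophages, had the highest Pearson's r with Tyrobp over the 8 tumors (0.99, with 0.98 after the group means were removed). It was followed by Fermt3, an integrin activator of blood cells (0.96), by the lysozyme gene Lyz2 of myeloid cells (0.96), by the splicing gene Snrpa1 (0.96) and by the ribosome assembly gene Emg1 (0.96). C1qa had 7.36, 7.41, 7.19 and 7.41 in cKO tumors 1 to 4, against 7.19, 7.07, 6.88 and 6.67 in WT tumors 1 to 4. As for Tyrobp, cKO 3 was the lowest cKO tumor and WT 4 the lowest WT tumor. These r values are the highest among 9939 genes and describe the likeness of patterns, with no p.

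**Figure D2:**
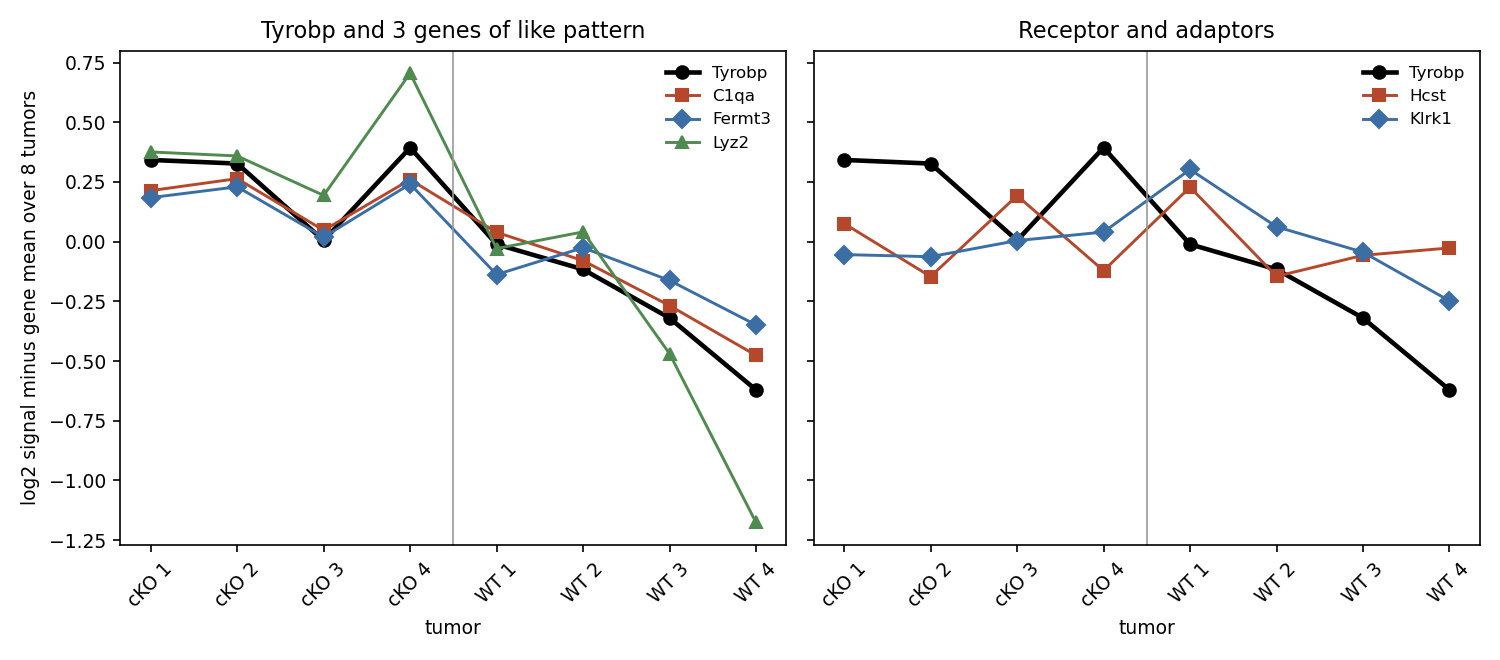
Log2 signal minus each gene's mean over the 8 tumors, by tumor, with cKO tumors left of the line and WT tumors right of it. Left, Tyrobp with C1qa, Fermt3 and Lyz2, all lowest in WT 4. Right, Tyrobp with Hcst and Klrk1; Klrk1 is lowest in WT 4 as Tyrobp is, but highest in WT 1.

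Macrophage markers were higher in most cases along with Tyrobp. Of 12 measured markers 9 were higher in cKO, with a median difference of 0.39, where all rows had a median of 0.02 and 56.5% were higher. None passed over all rows. At an unadjusted p below 0.05, 7 were higher, beside 5.54% of all rows. The mean signal of the markers lay between 6.62 and 6.88 in cKO tumors and between 6.35 and 6.79 in WT tumors. Among the brightest, Cd68, a lysosomal protein of macrophages, had 7.67 in cKO and 7.15 in WT tumors, and C1qb 7.99 and 7.60. The endotoxin co-receptor Cd14 ran the other way, with 8.31 and 8.88. The part of macrophage content in the Tyrobp difference was not tested.

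Receptors that signal through Tyrobp were counted next. Of 10 measured, 8 were higher in cKO, where 56.5% of all rows were higher. The median difference was 0.17, and none passed over all rows. Of the 10, 5 had a mean below 3.64, the lowest array median, among them Trem1 and Klrc2. Clec5a, a myeloid receptor, had 5.08 in cKO and 4.53 in WT tumors (difference 0.55, SE 0.22, limma adjusted p = 0.476). Trem1, an amplifier of inflammation on myeloid cells, had 3.40 and 3.08 (difference 0.33, adjusted p = 0.496). Klrc2, the activating NKG2C receptor of NK cells, had 1.74 and 1.55, with no overlap between the groups but a signal far below the array medians. Of all rows, 3.68% were higher in cKO with no overlap. The mean over the 10 lay between 3.75 and 3.81 in cKO tumors and between 3.52 and 3.69 in WT tumors.

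Intracellular signalling genes downstream of NKG2D showed no common direction. Of 12 measured, 5 were higher and 7 lower, with a median of −0.02, and none passed. Lcp2, an adaptor of lymphoid and myeloid cells, had 6.51 in cKO and 5.96 in WT tumors (difference 0.55, SE 0.20, limma adjusted p = 0.439). The phosphoinositide 3-kinase subunit Pik3r1 differed by −0.27 and the phospholipase Plcg2 by −0.35, with adjusted p of 0.541 and 0.545.

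Most receptors and markers of NK cells were dim. All 16 measured receptors of the other NK list had a mean below 3.64, the lowest array median, and so had 7 of the 8 measured NK cell markers. NK markers had mean signals between 2.89 and 2.95 in cKO tumors and between 2.92 and 3.07 in WT tumors. The NK cell marker Ncr1 had 2.85 in cKO and 2.94 in WT tumors, and Klrd1, the CD94 partner of NKG2A, had 3.22 and 3.54 (difference −0.32, limma adjusted p = 0.424). Of the 16 receptors 9 were higher and 7 lower, with a median of 0.01 (−0.05 to 0.01 with 1 tumor left out at a time), and none passed. Cd96, an NK and T cell receptor, differed by −0.25 and Klrb1c (NK1.1) by 0.18, with adjusted p of 0.621 and 0.658. T cell markers had mean signals between 3.72 and 3.96 in cKO tumors and between 3.54 and 3.89 in WT tumors. Of 9 measured, 3 had a mean below 3.64. In cKO 7 of the 9 were higher, with a median of 0.10, where 56.5% of all rows were higher, and none passed.

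Of 13 measured cytotoxic effector genes, through which NK and T cells kill, 8 were lower in cKO, where 56.5% of all rows were higher. The median was −0.16, or −0.07 without WT 3, and none passed. The granzyme Gzmb had 3.84 in cKO and 4.23 in WT tumors (difference −0.38, SE 0.14, limma adjusted p = 0.437), and the death ligand Tnfsf10 had 6.04 and 6.48 (difference −0.43, adjusted p = 0.492). Gzma, another granzyme, differed by −0.22. Of the 13 effectors, 6 had a mean below 3.64, the lowest array median, Gzma among them. Cytokines and transcription factors of NK cells were lower in 8 of 12 cases, with a median of −0.09 and none past the threshold. Of these 12, 4 had a mean below the lowest array median. Nfil3, a transcription factor needed for NK cell development, had 4.82 in cKO and 5.41 in WT tumors (difference −0.59, SE 0.14, adjusted p = 0.227). Its groups did not overlap, beside 1.73% of all rows with no overlap and lower in cKO. Il18r1, a chain of the interleukin-18 receptor, differed by −1.06 (SE 0.46, adjusted p = 0.501) and the NK growth factor Il15 by −0.55 (SE 0.25, adjusted p = 0.527). Several of these genes are also expressed outside NK cells.

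Ligands of other NK cell receptors showed no common direction. Of 9 measured, 4 were higher and 5 lower, with a median of −0.13 and none past the threshold. Nectin3, an adhesion protein of the nectin family, had 5.77 in cKO and 5.16 in WT tumors (difference 0.61, SE 0.15, limma adjusted p = 0.255). Its groups did not overlap, beside 3.68% of all rows with no overlap and higher in cKO. Clec2d, the ligand of an inhibitory NK receptor, had 7.95 and 8.37 (difference −0.42, adjusted p = 0.474), and H2-T23, which presents peptides to CD94 and NKG2A, differed by −0.22 (adjusted p = 0.554).

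**Figure D3:**
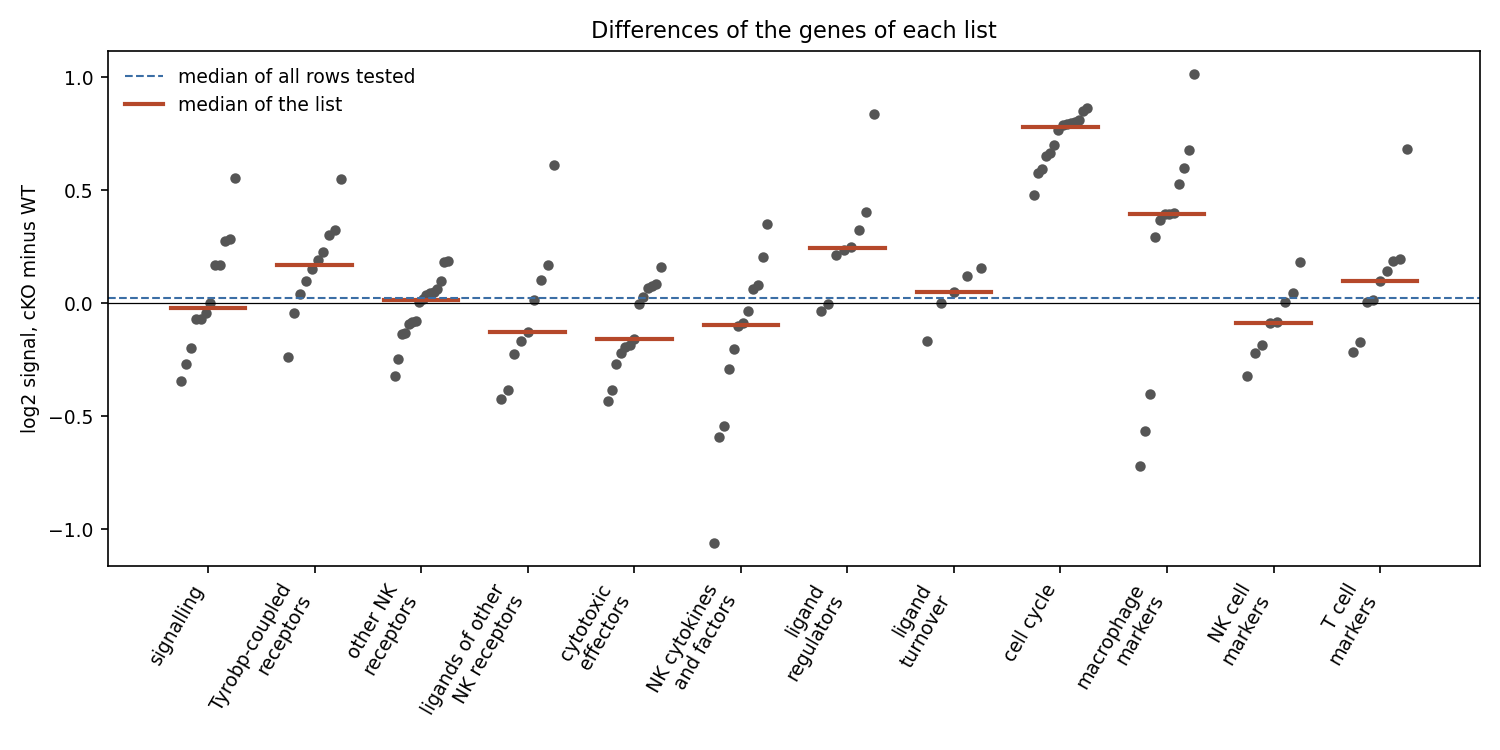
Difference in log2 signal, cKO minus WT, for each measured gene (points) of each list, with the list's median (red bar) and the median of all rows tested (dashed blue line, 0.02). Cell cycle genes and most macrophage markers lie above that line, and NK receptors spread around it.

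Of 8 measured genes linked to the induction of NKG2D ligands, 6 were higher in cKO, where 56.5% of all rows were higher. The 2 lower ones hardly differed, Atr by −0.005 and the stress factor Atf4 by −0.04. The DNA damage kinases Atm, Atr, Chek1 and Chek2 and the E2F factors have been linked to mouse ligand expression. The list's median was 0.24, and none passed. Chek1 had 6.38 in cKO and 5.54 in WT tumors (difference 0.84, SE 0.21, limma adjusted p = 0.258). Its groups did not overlap, beside 3.68% of all rows with no overlap and higher in cKO. E2f1 had 5.36 and 4.96 (difference 0.40, SE 0.14, adjusted p = 0.423), and E2f3 differed by 0.21 (adjusted p = 0.600). Of 5 genes of ligand turnover and shedding, 4 were higher, with a median of 0.05. The sheddase Adam17 differed by 0.16 and Adam9 by −0.17, and Marchf9, which in mice marks the Ulbp1 protein for degradation, by 0.12, with adjusted p of 0.604, 0.681 and 0.790.

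Cell cycle genes, a list chosen with earlier results of these data known, were higher in cKO tumors. All 14 measured were higher in cKO, with a median of 0.78, where 56.5% of all rows were higher, and none passed over all rows. At an unadjusted p below 0.05 in limma, 13 were higher, beside 5.54% of all rows. With no overlap, 12 were higher, beside 3.68% of all rows. Mcm5, a subunit of the replicative helicase, differed by 0.80 (SE 0.10, limma adjusted p = 0.0795), the cyclin gene Ccne1 had 6.25 in cKO and 5.46 in WT tumors (difference 0.79, SE 0.13, adjusted p = 0.142), and the mitotic kinase Plk1 had 8.09 and 7.40 (difference 0.70, SE 0.12, adjusted p = 0.142). The mean signal of these genes lay between 7.73 and 8.06 in cKO tumors and between 6.98 and 7.28 in WT tumors. Ulbp1 also separated the groups, but it was picked for its higher signal, so the shared separation is no test of a link. Within the groups the order differed: cKO 4 was highest for the cell cycle genes and cKO 2 for Ulbp1. The part of cell division in the Ulbp1 difference was not tested. Luminal markers had mean signals between 9.31 and 9.69 in cKO tumors and between 9.52 and 9.97 in WT tumors, and 8 of 9 were lower in cKO, with a median of −0.15.

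Markers of stromal cells were lower in cKO tumors. All 8 measured fibroblast markers were lower, with a median of −0.98, and none passed over all rows. At an unadjusted p below 0.05 in limma, 4 were lower, beside 4.14% of all rows. With no overlap, 2 were lower, beside 1.73% of all rows. The matrix gene Postn had 9.50 in cKO and 10.8 in WT tumors, and the collagen gene Col1a1 had 8.47 and 9.84. The mean of the fibroblast markers lay between 5.50 and 7.59 in cKO tumors and between 7.25 and 7.81 in WT tumors. Tumor cKO 3 was lowest, and the median was −0.45 without it and −1.48 without cKO 4. Of 5 pericyte markers 4 were lower, with a median of −0.42, and their mean lay between 6.07 and 6.46 in cKO tumors and between 6.54 and 6.59 in WT tumors. The part of stromal content in the differences of Ulbp1 and Tyrobp was not tested.

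**Figure D4:**
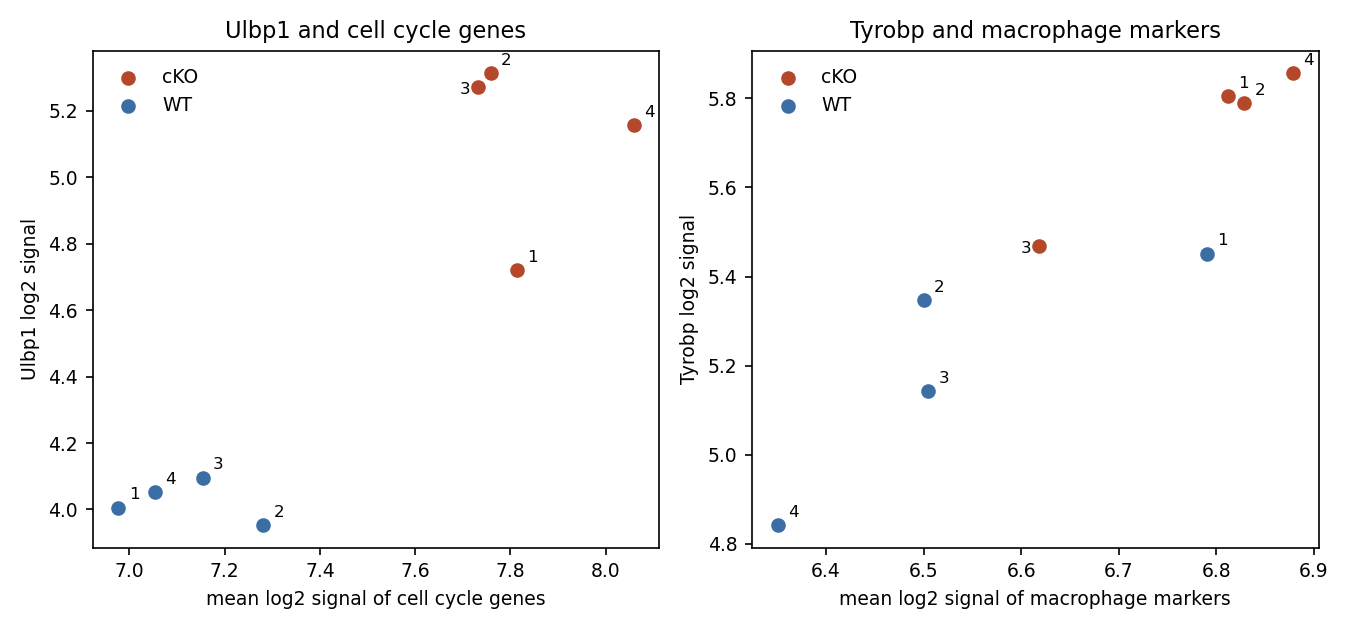
Left, Ulbp1 log2 signal against the mean log2 signal of 14 cell cycle genes. Right, Tyrobp log2 signal against the mean of 12 macrophage markers. Points are cKO (red) and WT (blue) tumors numbered by replicate. The groups stand apart on both axes at left, where Ulbp1 was picked for its higher signal in cKO tumors. At right WT 1, at 6.79 for the markers, lies among the cKO tumors on the marker axis.

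The genes most like Ulbp1 in pattern all had a higher mean in cKO, by 0.27 to 1.00, and Ulbp1 itself was chosen for such a difference. They were Kctd5, an adaptor of a ubiquitin ligase (r = 0.98), the proteasome chaperone Psmg3 (0.97), Topbp1, a DNA damage and replication factor (0.97), the histone gene H2bc12 (0.96) and Rangap1, of nuclear transport (0.96). After the group means were removed, r was 0.86 for Kctd5, 0.79 for Psmg3, 0.72 for Topbp1, 0.77 for Rangap1 and 0.53 for H2bc12. The genes most like H60b were Marcksl1 (0.98), Nek4 (0.95), Micu2 (0.94), Zfp772 (0.94) and Fam122b (0.94), and these differed between the groups by 0.08 to 0.19. No gene was common to the lists for Ulbp1 and H60b. For the dim rows of H60c, Klrk1 and Hcst, the closest genes were Tet3 (0.98), Edrf1 (0.94) and Blzf1 (0.95). The measured NK and T cell markers all had means below 5 and were not ranked.

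Differences of the genes beside the ligands on chromosome 10 are given as a description. Ulbp1 was picked for its higher signal in cKO tumors, so smaller differences among its neighbours were likely beforehand. The 10 measured neighbours of Ulbp1, 5 on each side, differed by −0.19 to 0.29, with a median of 0.02 and none past the threshold. On either side lay Cnksr3, a scaffold of kinase signalling (−0.08), and Lrp11 (0.26), and the widest difference was that of the nuclear pore gene Nup43 (0.29, SE 0.14). Rgs17, a regulator of G protein signalling, was the 1 of these 10 with no overlap between the groups (0.18, SE 0.07), beside 5.42% of all rows. Its signal was 2.43 in cKO and 2.25 in WT tumors. The hippo pathway kinase Lats1 differed by −0.08 and the protein repair gene Pcmt1 by −0.0017. Between Ulbp1 and H60c lay 50 annotated genes, and between Ulbp1 and H60b 193. The 10 neighbours of H60b differed by −0.22 to 0.46, among them the kinase Sgk1 (0.03) and the transcription factor Tbpl1 (0.18, SE 0.07). H60c had 6 measured neighbours, which differed by −0.21 to 0.29, the widest being the scaffold Akap12.

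Beside Klrk1 on chromosome 6 lie other receptors of the NK gene complex. Its 10 neighbours differed by −0.32 to 0.44, with a median of 0.06, and included Klrd1 (−0.32), Klrc1 (0.19), Klrc2 (0.19), Klre1 (0.04) and Klri1 (−0.09). None passed, and the 5 receptors named had means below the array medians. Around Hcst and Tyrobp, no other neighbour differed by as much as Tyrobp, the closest in size being Clip3 at −0.47 (SE 0.18).

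**Figure D5:**
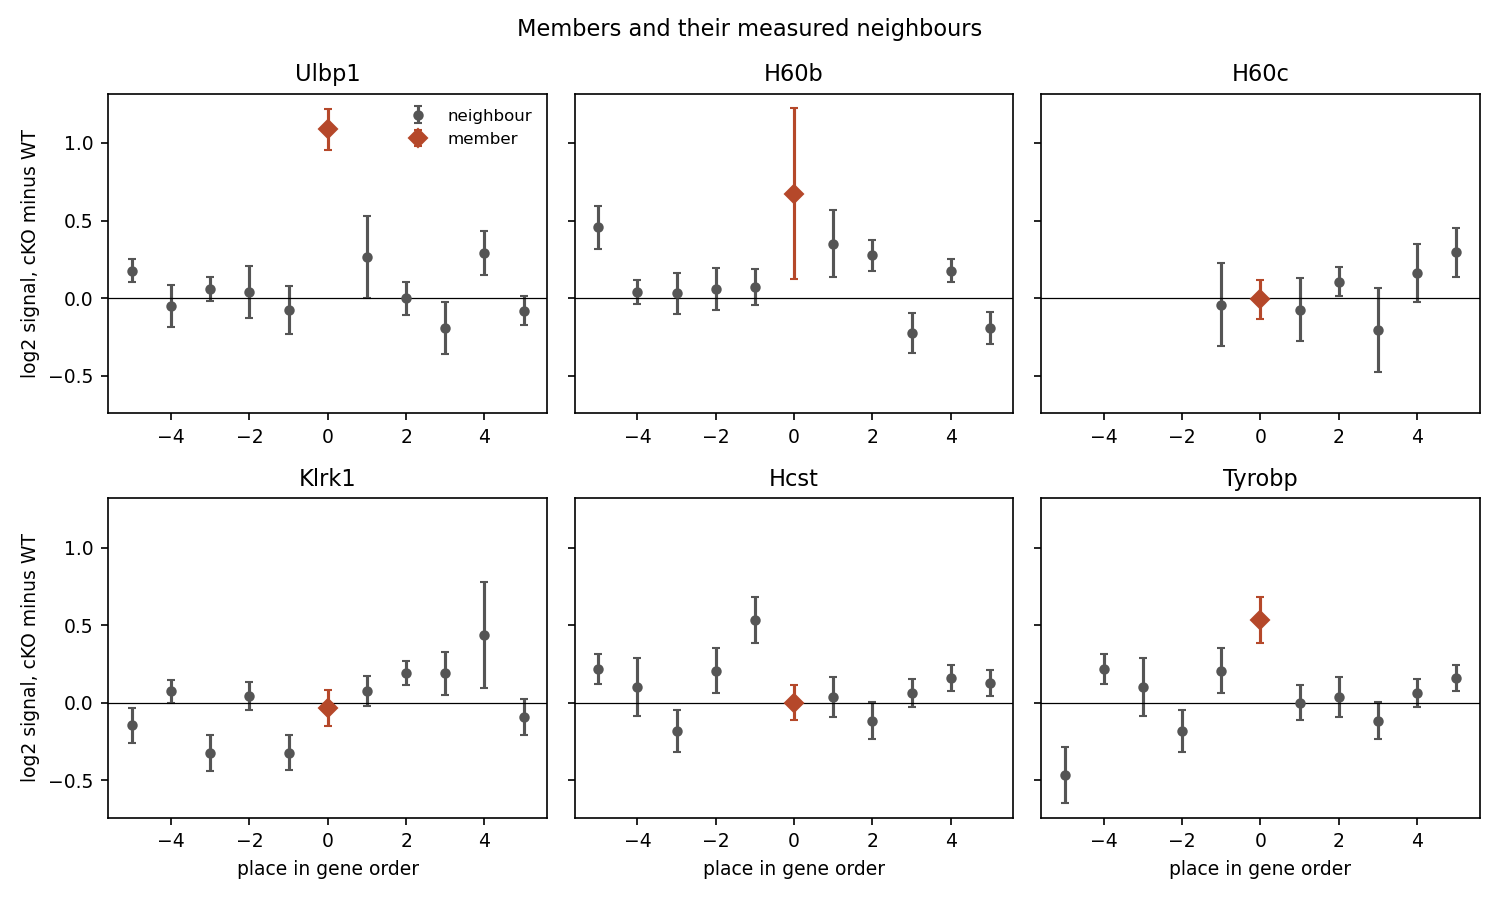
Difference in log2 signal, cKO minus WT, with its SE, for each of the 6 genes (red, at place 0) and its measured neighbours (grey) by place in the RefSeq gene order. Ulbp1, picked for its higher signal in cKO tumors, stands at 1.09, and its neighbours lie between −0.19 and 0.29.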

How the data were processed

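The labels describe total RNA of 8 frozen tumors, of which 400 ng each was labelled and hybridised. Each tumor has 1 deposited log2 signal for every array row. RMA and limma are named in the submitters' processing notes, without version or settings, and no genome build is named there. The values lay between 0.853 and 12.9, and any 2 arrays correlated over rows with r between 0.976 and 0.989. Precision is limited by how many arrays there are.

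The platform annotation gives a single symbol for 23521 of 41345 rows, and 23328 of these took their symbol from the RefSeq table of GRCm38.p6 by gene identifier. That table also gave the gene order and the promoters, which it held for 4 of the 6 genes. All 23521 rows entered 1 fit by lmFit and eBayes of limma 3.58.1, run under R 4.3.3 (cKO minus WT, two-sided, no covariate), with Benjamini-Hochberg adjustment over all rows and a threshold of 0.05. P-values in the text named adjusted are from this fit unless they follow a permutation. No test of Ulbp1 is reported, although its correlation with Klrk1 was 1 of the 4 over which those p-values were adjusted. The fit was tested on simulated data. Permutations were computed with numpy 2.4.6 in Python 3.11.15, and scipy 1.17.1 gave the ranks and adjusted the p-values of the correlations.

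The genes followed and all gene lists were chosen with earlier results of these data known. Lists were described by counts and medians, without a set test. A gene with several rows was shown by the row with the highest mean. Named genes were Mmp14, up to 3 of each list with the smallest p, up to 3 of each marker list with the highest mean, the neighbours of the ligands and the 5 genes with the highest r for each gene followed. Genes outside this rule, named after their values were seen, are Ncr1, Klre1, Klri1, Klrc1, Clip3, Atr and Atf4. Predicted loci and small RNAs were counted and not named. Alternatives are given in the closing section.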

Additional observations from a re-analysis of the deposited data

Results flagged for a closer look

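The mean log2 signal of the NK cytokine and factor list was 4.99 in cKO 2, set apart from 4.72 to 4.75 in the other cKO tumors, and inside the range of the WT tumors, 4.92 to 5.08. Of 58 groups of 4 values examined, 1 held a tumor that stood apart in this way, where chance gives about 1 in 20.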

How the results depend on the processing

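H60b, H60c, Klrk1 and Hcst stayed above the threshold of adjusted p in limma under every alternative run. With 1 tumor left out at a time, the difference lay between 1.02 and 1.22 for Ulbp1, 0.27 and 1.27 for H60b, −0.11 and 0.07 for H60c, −0.13 and 0.06 for Klrk1, −0.06 and 0.08 for Hcst, and 0.42 and 0.62 for Tyrobp (adjusted p 0.237 to 0.567). The differences of H60c, Klrk1 and Hcst changed sign among these, far from any call. The range for Ulbp1 describes the values it was picked on. For Klrk1, arrays 1 to 4 gave −0.24 and arrays 5 to 8 gave 0.17. Tyrobp fell below 0.05 in the exact permutation alone (difference 0.53, p = 0.0286), which is not adjusted over rows. With 4 against 4, any row whose groups do not overlap gets this p, and 5.42% of all rows did not overlap. Mmp14 differed by −1.13 and −1.66 within arrays 1 to 4 and 5 to 8, and by −1.48 to −1.30 with 1 tumor left out. With 1 tumor left out, r lay between −0.11 and 0.55 for Klrk1 and Hcst, −0.20 and 0.59 for Klrk1 and Tyrobp, −0.15 and 0.11 for Hcst and Tyrobp, and −0.50 and 0.29 for Ulbp1 and Klrk1.

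Replicate numbers gave no clear sign of pairing the tumors. The deviations of same-numbered tumors from their group means correlated with r = −0.02, −0.20, 0.29 and −0.24, and 1 of the 4 numbers correlated best with its own. With 4 tumors in each group, this check cannot show that pairing was absent. With the replicate block, Mmp14 kept its difference of −1.40 with an adjusted p of 0.353, and with the array number as a block 0.0708. Rows past the threshold numbered 2, and 0 with the replicate block (1898 at an unadjusted p below 0.05), 1 with the array block, 3 after arrays were shifted to 1 median and 0 to 3 with 1 tumor left out. They numbered 0 without cKO 4 or any 1 WT tumor, where limma still gave 1597 to 2659 rows at an unadjusted p below 0.05. The causes were not tested. List medians with 1 tumor left out were added after the data were seen. Dim rows, among them H60c, Klrk1 and most NK markers, limit what these arrays can show.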
